A study of Mus musculus with 7 samples.

Results

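Vitamin A storage and retinoic acid genes are described here across mouse fetal liver with and without Pcbp2, an RNA-binding protein of the poly(C)-binding family. The set is a fixed list of 9 genes: Lrat, Rbp4, Stra6, Aldh1a1, Aldh1a2, Crabp1, Crabp2, Rarb and Cyp26a1. Genes were looked up by name in the authors' deposited comparison table, which held 8 of the 9, and joined by identifier to the counts of 38924 genes. Cyp26a1 was not found there by name, is not counted as a member, and is described separately from its own counts. The libraries were messenger RNA sequencing of fetal liver taken at 12.5 days post coitum, 4 labelled wild type (replicates 1 to 4) and 3 labelled PCBP2 knockout (replicates 3 to 5). The labels give no strain, sex, litter or targeting strategy and do not say that each library is a separate animal, so every p-value here speaks of the spread of these libraries, which may be partly technical.

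Retinol, the alcohol form of vitamin A, travels in blood on a carrier protein and enters cells through a membrane receptor. In the liver it is stored as retinyl esters in the lipid droplets of stellate cells, mesenchymal cells that in the embryo arise from the septum transversum and the mesothelium around the liver. Where it is needed, retinol is oxidised to retinal and then to retinoic acid, which binds nuclear receptors on DNA, while cytochromes of the Cyp26 family break it down. Retinoic acid from the liver's mesothelial and mesenchymal layer is known to act on growth of the fetal liver.

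Retinoic acid receptors bind pairs of a core hexamer, classically as a direct repeat with 5 bases in between. The hexamer searched was AGGTCA or one of its variants, which are AGTTCA as well as GGGTCA and also GGTTCA. Windows of 300 bases around RefSeq transcription starts (250 before, 50 after; build GRCm38.p6, the assembly that mm10 names) were searched for this repeat on both strands. It was present in 32 of 32851 windows, or 0.0974%. Windows were matched for 7 of the 8 members, all but Crabp2, and for Cyp26a1. Among them the repeat occurred in the window of Rarb, the receptor gene known for carrying such an element, and in that of Cyp26a1. Both elements are shown because retinoic acid is known to act on these genes through repeats of this kind. Capitals mark the repeat, which lies on the strand of the gene in Rarb and on the opposite strand in Cyp26a1.
Rarb, chr14:16575506-16575535, minus strand: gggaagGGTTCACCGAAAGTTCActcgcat
Cyp26a1, chr19:37697770-37697799, plus strand: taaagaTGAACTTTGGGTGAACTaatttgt

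The Rarb repeat occupies bases 53 to 37 before the RefSeq transcription start of its window, and the Cyp26a1 repeat bases 32 to 16 before its own. In the GENCODE M21 annotation all 30 bases shown for Rarb lie in annotated exons, and 2 of the 30 shown for Cyp26a1 do. A single hexamer is common, occurring in 43.7% of all windows, and was found in 1 window each of Rbp4, Stra6 and Aldh1a1. Lrat, the gene with the lowest log2 fold change of the set, had no hexamer in its window, and neither had Aldh1a2 or Crabp1. The 200 bases before the start of Lrat are given because its transcript level is the finding the rest of the text turns on. Capitals mark a TATAA element, present on either strand in 24.9% of windows, among them 1 window of Rbp4 and that of Cyp26a1.
Lrat, chr3:82903975-82904174, minus strand: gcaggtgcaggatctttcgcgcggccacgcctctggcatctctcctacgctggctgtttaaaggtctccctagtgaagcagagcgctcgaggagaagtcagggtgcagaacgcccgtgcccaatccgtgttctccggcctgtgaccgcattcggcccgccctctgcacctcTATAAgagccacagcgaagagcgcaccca

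Reads assigned to genes numbered between 31898339 and 44544889 per library. Levels are given in CPM, the reads of a gene scaled to its library's total and by TMM, and a library without a read of a gene allows up to 3 reads, or 0.102 CPM at most. Pcbp2 had 165, 329, 347 and 338 CPM in wild type replicates 1 to 4. In knockout replicates 3 to 5 it had 2.24, 1.39 and 2.22 CPM, far below every wild-type library. Wild type replicate 1 was well below the other wild-type libraries in Pcbp2, and the cause of that was not tested. Hepatoblast transcripts were abundant, with Afp, the fetal serum protein alpha-fetoprotein, between 2841 and 6494 CPM. Wild type replicate 2 stood apart in steroidogenic and neural transcripts: the summed level of the kidney, adrenal and gonad list was 35.6 CPM there and 8.77 to 17.3 CPM in the other libraries, and that of the neural list was 67.6 CPM against 9.39 to 40.1 CPM. Marker lists also differed by group, where 3.43% of all genes tested were called lower and 1.59% higher: 10 of 14 erythroid markers fell, their sum being 50282 to 90372 CPM in wild type and 12344 to 16641 CPM in knockout, and 4 of 12 endothelial markers rose, with sums of 319 to 425 and 426 to 521 CPM. Of 10 heart markers 3 rose, Nppa, Myh6 and Tnni3, with a median log2 fold change of 1.24; their sum was 80.1 to 147 CPM in the wild-type libraries and 415, 89.4 and 178 CPM in knockout replicates 3, 4 and 5. The part of these cell types in the values of the retinoid genes was not tested.

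The comparison of knockout with wild type asks how the retinoid genes stand when Pcbp2 is lost. Of the 8 members, 1 fell (Lrat) and none rose at an edgeR adjusted p under 0.05. Among all 16226 genes tested, 5.02% were called, 3.43% lower and 1.59% higher, so 1 call is too few to set the members apart. Without adjustment 4 members had a p under 0.05, Lrat and Aldh1a1 on the lower side and Stra6 and Crabp1 on the higher side, against 21.8% of all genes tested. The limma-voom test also called Lrat lower and no member higher, where 519 and 235 of all 16226 genes were called in these directions. DESeq2 called Lrat and Aldh1a1 lower and Stra6 higher, where it called 1057 genes lower and 617 higher. The same 3 members were called in the authors' deposited table. The median log2 fold change of the members was 0.02, beside 0.01 over all genes tested. Knockout libraries lay entirely below wild type for 2 members, Lrat and Aldh1a1, and entirely above for none, where 10.8% and 9.83% of all genes tested were separated in these ways.

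**Figure D1:**
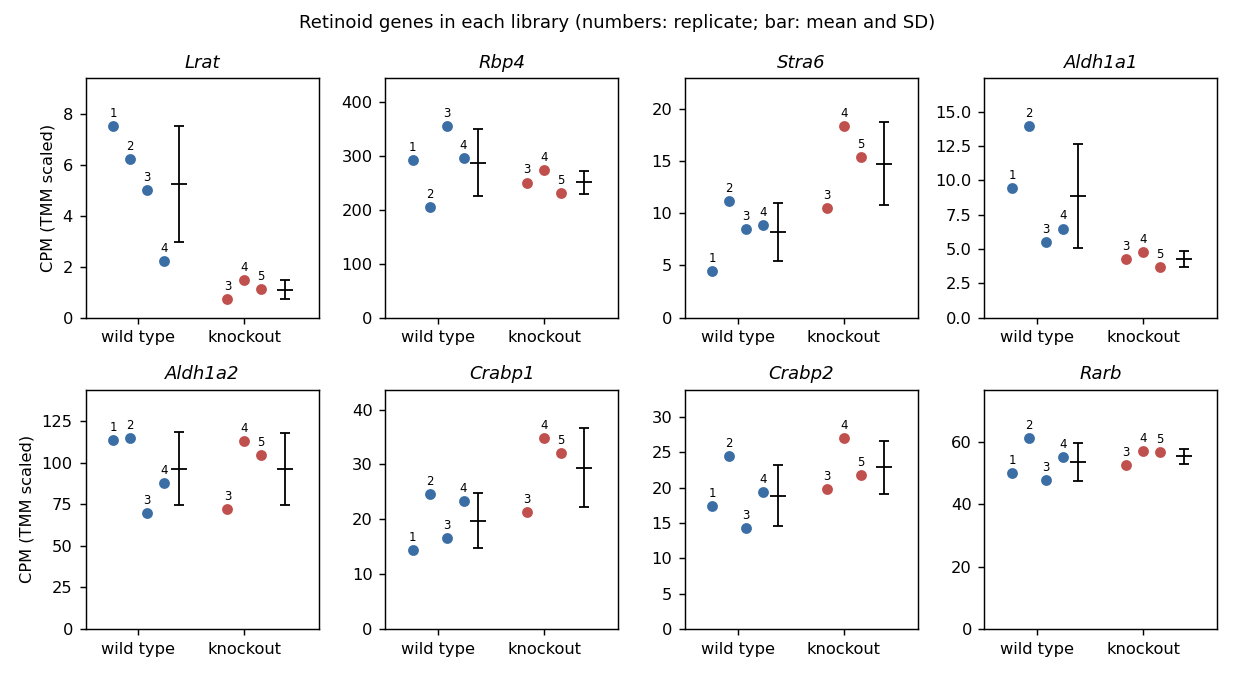
Level of each of the 8 retinoid genes in CPM (vertical axis, from 0) in the 4 wild-type libraries (blue) and 3 knockout libraries (red); small numbers give the replicate, and the black bars the mean and SD of each group. Lrat and Aldh1a1 show no overlap between the groups, while Rarb and Aldh1a2 overlap.

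The largest difference among the members was in storage. Lrat encodes lecithin retinol acyltransferase, the enzyme that esterifies retinol for storage, and is used as a marker of quiescent stellate cells. Its level was 7.52, 6.25, 5.01 and 2.21 CPM in wild type replicates 1 to 4, and 0.726, 1.46 and 1.11 CPM in knockout replicates 3 to 5. The lowest wild-type library, replicate 4, was still above the highest knockout library, replicate 4, although the wild-type values themselves spread over more than 3-fold. Behind these values stood between 96 and 256 reads in wild type and 24, 66 and 39 reads in knockout. Wild type averaged 5.24 ± 2.27 CPM (SD, n = 4), against 1.10 ± 0.365 CPM in knockout (SD, n = 3).

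The log2 fold change of Lrat, with its SE, was -2.23 ± 0.41 (edgeR adjusted p = 0.0161), a 4.70-fold fall with a 95% interval from 2.49 to 8.87. Of the 16226 genes tested, 49 had a log2 fold change as low or lower, 0.302% of them, and 32 of the 556 genes called lower did. The call ended without knockout replicate 5 (log2 -2.24, edgeR adjusted p = 0.0790), although the size of the difference hardly moved. Over all genes, calls without that library numbered 140, against 814 with every library. In the authors' deposited table Lrat also fell, by 2.04 on the log2 scale with an adjusted p of 2.63e-07. Lrat (ENSMUSG00000028003.6) lies on the minus strand of chromosome 3 from 82892579 to 82903973 in mm10, the build of all coordinates here. It is among 5 members whose locus overlaps another annotated gene, in its case the antisense gene Rbm46os. The sources used here do not give the strand setting of the counting, so reads of overlapping genes may not have been told apart.

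Other transcripts of stellate cells moved in both directions. Of 21 stellate cell and liver mesenchyme markers, Lum, a collagen-binding proteoglycan, fell and Acta2, smooth muscle actin, rose, while 19 were not called, beside 3.43% lower and 1.59% higher over all genes. Without adjustment 4 were higher and 3 lower at p under 0.05, against 9.98% and 11.8% of all genes. Of the 21 log2 fold changes 15 were negative, and their median was -0.21, beside 0.01 over all genes tested. No marker was at 0 in every library. The markers' summed level was 3126 to 4395 CPM in wild type and 3004 to 3388 CPM in knockout. Lum had 251 ± 28.7 CPM in wild type (SD, n = 4) and 162 ± 10.9 CPM in knockout (SD, n = 3), so that its log2 fold change was -0.64 ± 0.11 (edgeR adjusted p = 0.0135); leaving out knockout replicate 5 ended the call (0.0897). Acta2 averaged 88.8 ± 20.3 CPM in wild type, below its 134 ± 0.723 CPM in the knockout libraries. Its log2 difference was 0.59 ± 0.15 (edgeR adjusted p = 0.0483), a call that ended when any library but wild type replicate 2 was left out (0.0855 to 0.155). In bulk liver RNA, fewer cells of a type and less RNA per cell cannot be told apart.

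Set against the mean log2 level of those 21 markers in the same library, Lrat stood at -2.63, -3.35, -3.45 and -4.62 in wild type replicates 1 to 4 and at -6.08, -5.18 and -5.42 in knockout replicates 3 to 5. These relative values did not overlap between the groups, and they differed by -2.05 on the log2 scale, a difference close to that of Lrat itself. The two-sided exact permutation p was 0.0571, and 0.171 adjusted over the 3 ratios examined, where 0.0286 is the smallest p the design allows. The relative difference did not pass. Adjusted over the 3 ratios, a single ratio at that smallest p would not have passed either, so the test alone cannot decide. This limit holds for each of the 3 ratios.

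Transport in blood and uptake behaved otherwise. Rbp4 encodes the plasma carrier of retinol, made by hepatocytes and their precursors, and was the most abundant member. It had 293, 205, 355 and 297 CPM in wild type and 251, 273 and 231 CPM in knockout, in the order of the replicates. All 3 knockout libraries lay inside the wild-type range, which was set by replicates 2 and 3. The log2 fold change was -0.19 ± 0.16 (edgeR adjusted p = 0.536), with a 95% interval from -0.56 to 0.17. Relative to 16 hepatoblast markers in the same libraries, Rbp4 differed by 0.00878 on the log2 scale (two-sided exact permutation p = 0.943; adjusted 0.943), and by -0.26 when the median of the markers was used in place of the mean. Of those 16 markers 1 was called, Ahsg, the serum glycoprotein fetuin-A, where 3.43% of all genes were called lower. Its log2 fold change was -1.18 ± 0.23 (edgeR adjusted p = 0.0213). The edgeR adjusted p was 0.0738 without knockout replicate 4 and 0.0998 without knockout replicate 5. Of the 16 log2 fold changes 12 were negative, and their median was -0.16, beside 0.01 over all genes tested. Without adjustment 3 were lower at p under 0.05, against 11.8% of all genes, and 2 lay entirely below wild type, against 10.8%.

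Stra6 encodes the membrane receptor that takes up retinol from its carrier, and is itself induced by retinoic acid in many cells. It had 4.47, 11.1, 8.48 and 8.88 CPM in wild type and 10.5, 18.3 and 15.4 CPM in knockout. Knockout replicates 4 and 5 were above every wild-type library, but knockout replicate 3 was below wild type replicate 2. The log2 fold change was 0.83 ± 0.27 (edgeR adjusted p = 0.111), with a 95% interval from 0.22 to 1.44. Stra6 was called by DESeq2 (adjusted p = 0.0308) and in the authors' deposited table (log2 0.79, adjusted p = 0.0267), but with a library left out its edgeR adjusted p ran from 0.0587 to 0.284. Stra6 (ENSMUSG00000032327.8) lies on the plus strand of chromosome 9 from 58063788 to 58153996. Rbp4 (ENSMUSG00000024990.6) is on the minus strand of chromosome 19, from 38116629 to 38125281.

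**Figure D2:**
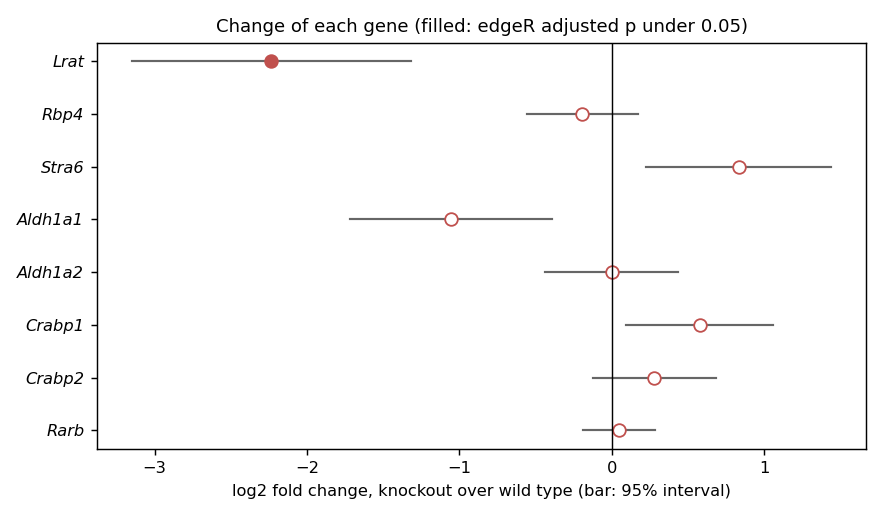
Log2 fold change of each retinoid gene, knockout over wild type (horizontal axis), with its 95% interval from the edgeR fit; the filled point is the gene with an adjusted p under 0.05. Lrat, at -2.23, is the filled point, and the unadjusted intervals of Stra6, Aldh1a1 and Crabp1 also leave 0 outside.

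Synthesis of retinoic acid rests on the retinaldehyde dehydrogenases. Aldh1a2, the main enzyme of the embryo and a gene of the liver mesothelium, had 113, 115, 69.4 and 87.7 CPM in wild type and 71.8, 113 and 105 CPM in knockout. The ranges of the groups were nearly the same, and so were the means, 96.4 ± 21.9 CPM (SD, n = 4) and 96.4 ± 21.7 CPM (SD, n = 3). The 95% interval of its log2 fold change ran from -0.44 to 0.44 (edgeR adjusted p = 0.999), which leaves room for a difference of that size either way. Of 12 mesothelial markers, Gpm6a, a neuronal and mesothelial membrane glycoprotein, was called lower (log2 -0.58 ± 0.12, edgeR adjusted p = 0.0258), 11 were not called, and the median was -0.34. Without adjustment 7 of the 12 were lower at p under 0.05, against 11.8% of all genes, and 5 lay entirely below wild type, against 10.8%. The call of Gpm6a ended with total-count scaling (0.0563) and without wild type replicates 1 or 4 (0.0512 and 0.0710) or knockout replicates 4 or 5 (0.0821 and 0.139). The markers' summed level was 842 to 988 CPM in wild type and 819 to 914 CPM in knockout. Relative to these markers Aldh1a2 differed by 0.34 on the log2 scale, without passing (two-sided exact permutation p = 0.143; adjusted 0.214).

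Aldh1a1, a related dehydrogenase of several adult organs, had 9.45, 13.9, 5.47 and 6.49 CPM in wild type and 4.29, 4.81 and 3.65 CPM in knockout. Every knockout library was below every wild-type library, with the widest gap to wild type replicates 1 and 2. The log2 fold change was -1.05 ± 0.30 (edgeR adjusted p = 0.0740), and 2.68% of genes tested were as low or lower. Without wild type replicate 2, the library with the high adrenal and neural sums, it was -0.75 ± 0.23 (edgeR adjusted p = 0.0756); the part of those transcripts in the result was not tested. Aldh1a1 was called when low counts were not filtered (edgeR adjusted p = 0.0286), by DESeq2 (adjusted p = 0.00647) and in the authors' deposited table (log2 -1.0, adjusted p = 0.00492). Its reads are uncertain to the extent that they are shared with the near copy Aldh1a7, which had a log2 difference of -0.05 ± 0.25. Aldh1a1 (ENSMUSG00000053279.6) spans 20492715 to 20643465 on the plus strand of chromosome 19, and Aldh1a2 (ENSMUSG00000013584.5) 71215789 to 71296243 on the plus strand of chromosome 9.

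Per kilobase of exon, Aldh1a2 made up 95.6 ± 0.933% (SD, n = 4) of the combined level of Aldh1a1, Aldh1a2 and Aldh1a3 in wild type and 97.4 ± 0.603% (SD, n = 3) in knockout. The share of Aldh1a1 was 3.27 to 5.24% in wild type and 1.57 to 2.65% in knockout. Most of the transcripts of these 3 enzymes were thus Aldh1a2 in both groups.

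The cellular binding proteins hold retinoic acid inside the cell, Crabp1 in the cytosol and Crabp2 also handing it to nuclear receptors. Crabp1 had 14.4, 24.5, 16.6 and 23.4 CPM in wild type and 21.3, 34.9 and 32.1 CPM in knockout. Knockout replicates 4 and 5 were the highest of all 7 libraries, and knockout replicate 3 lay between the wild-type values. The log2 fold change was 0.58 ± 0.22 (edgeR adjusted p = 0.154), with a 95% interval from 0.10 to 1.06. Crabp2 had 17.4, 24.5, 14.2 and 19.3 CPM in wild type and 19.8, 27.1 and 21.8 CPM in knockout. Its groups overlapped more widely, with a log2 fold change of 0.28 ± 0.18 (edgeR adjusted p = 0.405). Per kilobase, Crabp1 made up 57.7 to 66.6% of the pair in wild type and 64.0 to 70.9% in knockout. Crabp1 (ENSMUSG00000032291.8) spans 54764748 to 54773110 on chromosome 9 and Crabp2 (ENSMUSG00000004885.5) 87948666 to 87953376 on chromosome 3, both on the plus strand.

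Rarb, the retinoic acid receptor that carries the repeat shown above, was the steadiest member. It had 50.004, 61.4, 47.9 and 55.1 CPM in wild type and 52.7, 57.0 and 56.8 CPM in knockout, all knockout values lying within the wild-type range. The log2 fold change was 0.05 ± 0.11 (edgeR adjusted p = 0.827), and its 95% interval, from -0.19 to 0.29, was the narrowest of the 8 members. The counts of Rarb come from all its transcripts, including those from starts other than the one beside the repeat, and part of its locus overlaps Top2b. Rarb (ENSMUSG00000017491.8) spans 16430839 to 16819156 on the minus strand of chromosome 14.

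Cyp26a1, the other gene with the repeat, encodes the enzyme that clears retinoic acid and had few reads. Its level was 0.576, 2.76, 0.520 and 0.322 CPM in wild type and 0.605, 1.21 and 0.684 CPM in knockout. Wild type replicate 2 alone held 113 reads, against 14 to 55 in the other libraries. The log2 difference was -0.32 ± 0.67 (edgeR adjusted p = 0.823) and turned to 0.84 ± 0.39 without wild type replicate 2 (edgeR adjusted p = 0.224), so no direction can be given. It also turned positive with limma-voom (0.16). Cyp26a1 (ENSMUSG00000024987.5) spans 37697798 to 37701536 on the plus strand of chromosome 19.

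**Figure D3:**
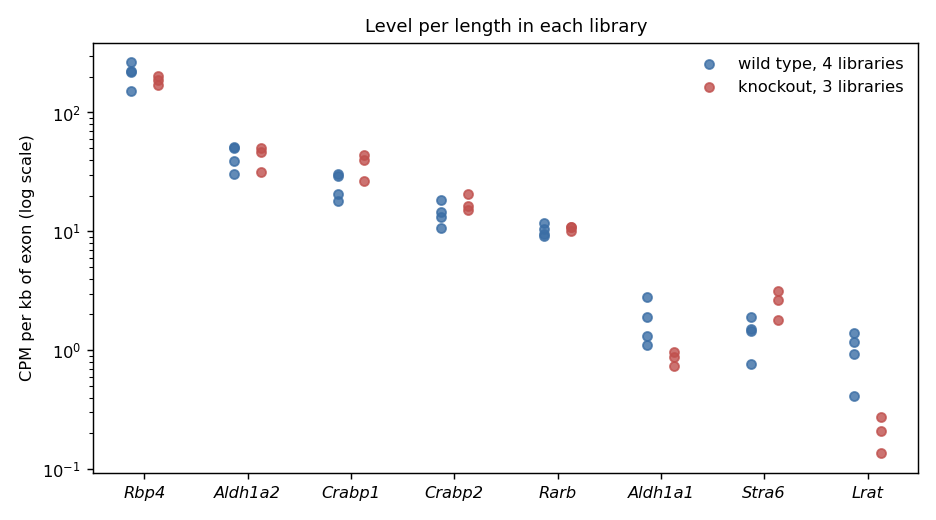
Level per kilobase of exon (vertical axis, log scale) of the 8 retinoid genes in each library, wild type in blue and knockout in red, ordered by the wild-type mean. Rbp4 is highest and Lrat lowest in both groups, and Stra6 and Aldh1a1 change places.

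On the scale of CPM per kilobase the members spanned more than 100-fold. In wild type the means were 214 for Rbp4, 42.6 for Aldh1a2, 24.6 for Crabp1, 14.3 for Crabp2, 10.2 for Rarb, 1.79 for Aldh1a1, 1.41 for Stra6 and 0.980 for Lrat. The libraries of neighbouring genes in this order overlapped between Crabp1 and Crabp2, Crabp2 and Rarb, Aldh1a1 and Stra6, and Stra6 and Lrat. In knockout the order was the same except that Stra6, at 2.53, came before Aldh1a1, at 0.861, with no overlap between them, while Lrat was at 0.205. Here Aldh1a2 and Crabp1 were the only neighbours whose libraries overlapped.

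Profiles over the 7 libraries were compared for the 4 members whose log2 CPM ranged over at least 1 unit, by the root mean square difference of centred log2 CPM among 12888 other genes. These likenesses are descriptions over libraries that also share depth and composition. Genes were picked for like profiles over all 7 libraries, so a shared group difference or low library follows from the choice. The genes most like Lrat were Mgp, an inhibitor of calcification (0.37), Wdr38 (0.38) and Hist1h1d, a linker histone (0.41). Mgp had 39.0, 41.0, 28.4 and 18.0 CPM in wild type and 7.62, 16.1 and 9.47 CPM in knockout, and like Lrat it was lowest in replicate 4 of the wild type; its log2 fold change was -1.51 ± 0.32 (edgeR adjusted p = 0.0259). Leaving out replicate 1 or 3 of the wild type, or 3 or 5 of the knockout, ended that call (0.0536 to 0.125). Closest to Stra6 were Sox18, an endothelial transcription factor (0.14), Nfatc4 (0.15) and Ecm1, an extracellular matrix protein of stellate cells (0.15). Closest to Aldh1a1 were Fbln5, an elastic fibre protein (0.18), Tor3a (0.19) and Oasl2, an interferon-induced gene (0.20). Those nearest to Crabp1 were Slc4a3 (0.0590), Tead2, a transcription factor of the Hippo pathway (0.0752), and Ror2, a Wnt receptor (0.0827).

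The rest of the pathway was read from lists of carriers, enzymes, receptors and target genes. Of 60 other retinoid pathway genes 50 had enough reads to be tested; 1 fell, Aldh8a1, and none rose with edgeR, against 3.43% and 1.59% of all genes. Without adjustment 4 were higher and 3 lower at p under 0.05, against 9.98% and 11.8% of all genes. DESeq2 called 2 higher and 3 lower, where it called 617 and 1057 of all 16226 genes. With limma-voom none was higher and 1 lower, against 235 and 519 of all genes. The median log2 fold change of the 50 pathway genes was 0.02. Rdh9 and Sdr16c5 had no read in any library.

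Aldh8a1, an aldehyde dehydrogenase named for its activity on retinal, had 3.45, 2.37, 4.16 and 3.29 CPM in wild type and 1.66, 1.08 and 1.60 CPM in knockout, with no overlap. Its log2 fold change was -1.20 ± 0.26 (edgeR adjusted p = 0.0317), but leaving out any library except wild type replicate 2 and knockout replicate 3 ended the call (edgeR adjusted p = 0.0642 to 0.111). No other of the 16 tested genes of retinol and retinal oxidation and reduction was called; Rdh10, the main embryonic retinol dehydrogenase, had a log2 difference of -0.19 ± 0.12 and Dhrs3, which turns retinal back to retinol, one of -0.24 ± 0.18.

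Where 21.8% of all genes had an unadjusted p under 0.05, 2 of the 17 carrier, uptake and storage genes tested did. None of the 17 was called by edgeR. Those with the smallest p included Lrp2, the endocytic receptor megalin (log2 -0.50 ± 0.13, edgeR adjusted p = 0.0635), Pnpla3, a lipase that acts on retinyl esters (0.79 ± 0.33, 0.194), and Fabp5, a fatty acid-binding protein that can carry retinoic acid (-0.22 ± 0.13, 0.365). Lrp2 was called by DESeq2 (adjusted p = 0.0118), with no filter (edgeR adjusted p = 0.0395) and without wild type replicate 1 (edgeR adjusted p = 0.0489).

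For breakdown, 2 of 5 genes were tested and none was called by edgeR. Cyp26b1, which clears retinoic acid in mesenchyme, had 1.56, 3.73, 2.44 and 2.14 CPM in wild type and 3.63, 7.06 and 5.39 CPM in knockout. Its lowest knockout library was just below wild type replicate 2, and its log2 fold change was 1.12 ± 0.31 (edgeR adjusted p = 0.0677). It passed without wild type replicate 2 (0.0217), without knockout replicate 3 (0.0424), when low counts were not filtered (0.0333) and in DESeq2 (0.00839). Cyp2s1 had a log2 difference of 0.46 ± 0.24 (edgeR adjusted p = 0.297).

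Receptors and co-regulators gave no edgeR call among 15 tested, with 3 at an unadjusted p under 0.05, against 21.8% of all genes. The median of the 15 was 0.14, beside 0.01 over all genes tested. Rarg, the retinoic acid receptor gamma, had 11.5, 19.0, 15.2 and 17.3 CPM in wild type and 19.9, 26.7 and 24.2 CPM in knockout, without overlap (log2 0.58 ± 0.17, edgeR adjusted p = 0.0808). It passed with DESeq2 (adjusted p = 0.0231) and without wild type replicate 2 (edgeR adjusted p = 0.0472). The log2 differences were 0.64 ± 0.22 for Rxrg, a retinoid X receptor, -0.58 ± 0.20 for Ncoa7, a nuclear receptor coactivator, and 0.18 ± 0.10 for Med1, a Mediator subunit. Of these 3, Ncoa7 passed with DESeq2 (adjusted p = 0.0442). Rarb made up 52.1 to 61.8% of the 3 retinoic acid receptors per kilobase in wild type and 45.5 to 51.8% in knockout.

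**Figure D4:**
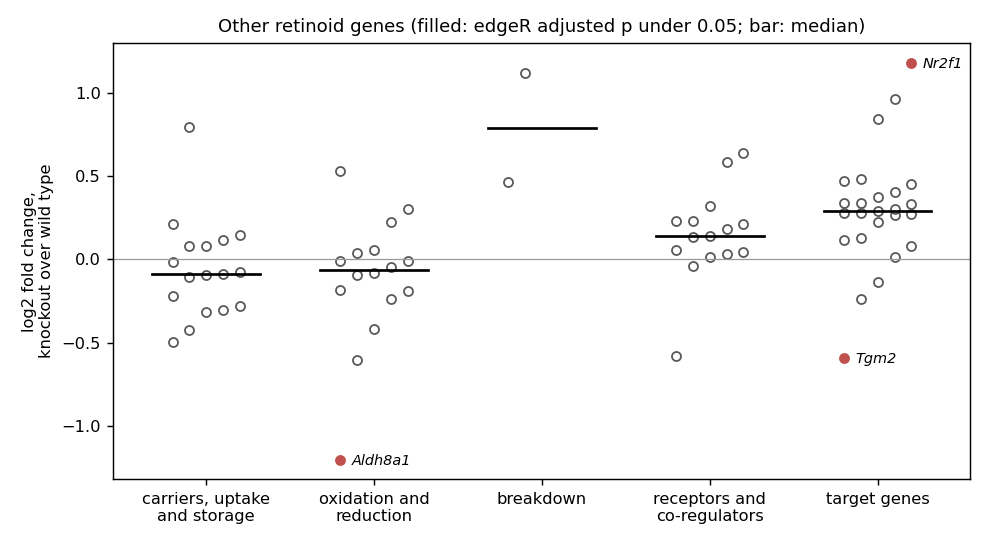
Log2 fold change, knockout over wild type (vertical axis), of the tested retinoid pathway genes in 4 role groups and of retinoic acid target genes; filled points passed at an edgeR adjusted p under 0.05 and black bars are medians. Aldh8a1 and Tgm2 are the filled points below 0, Nr2f1 the one above.

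Of 28 genes known to respond to retinoic acid, 25 were tested: 1 rose, 1 fell and 23 were not called, beside 1.59% higher and 3.43% lower over all genes. Nr2f1, the orphan nuclear receptor COUP-TFI, had 12.6, 22.1, 15.0 and 15.6 CPM in wild type and 33.4, 42.5 and 35.2 CPM in knockout. All knockout libraries were well above all wild-type ones, and the log2 fold change was 1.18 ± 0.18 (edgeR adjusted p = 0.00717). Tgm2, tissue transglutaminase, had 166, 179, 176 and 169 CPM in wild type and 107, 128 and 109 CPM in knockout, also without overlap. The log2 difference was -0.59 ± 0.09 (edgeR adjusted p = 0.00873), and the call ended without knockout replicate 5 (0.0723).

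The target genes had a median log2 fold change of 0.29, beside 0.01 over all genes tested, and 22 of the 25 were positive. Without adjustment 7 were higher and 1 lower at p under 0.05, against 9.98% and 11.8% of all genes. The Hox, Meis and Pbx genes on the list, which are patterning genes, were not called by edgeR. Of 10 tested lung and body wall mesenchyme markers 2 rose, Twist1 and Alx4, where 1.59% of all genes were called higher. Without adjustment 6 were higher at p under 0.05, against 9.98% of all genes, and 3 lay entirely above wild type, against 9.83%. The median log2 fold change of these markers was 0.73. Their summed level was 69.8 to 100.4 CPM in wild type and 101 to 143 CPM in knockout. Tbx5 is on both this list and the target list. The part of these markers in the target genes' values was not tested. The call of Twist1 ended without knockout replicate 5 (edgeR adjusted p = 0.0608), and that of Alx4 without wild type replicates 3 or 4 or knockout replicates 4 or 5 (0.0519 to 0.104). 

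**Figure D5:**
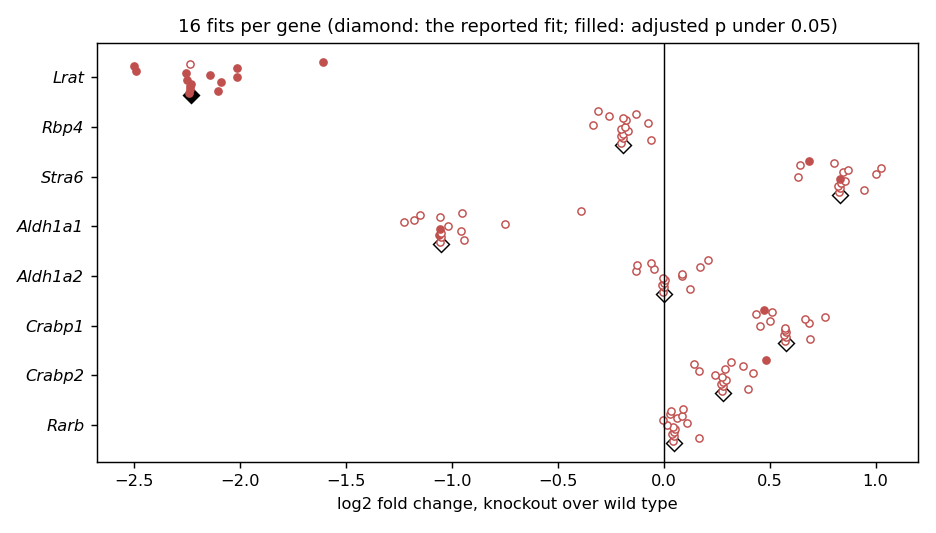
Log2 fold change of each retinoid gene (horizontal axis) in 16 fits that differ in scaling, filter, test, replicate block or the library left out; the diamond is the reported edgeR fit and filled symbols have an adjusted p under 0.05. Lrat stays between -2.50 and -1.61 and is filled in all but 1 alternative, and Aldh1a2 and Rarb scatter about 0.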

How the data were processed

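Raw read counts per gene were deposited by the authors for each of the 7 libraries, made from TruSeq stranded mRNA libraries per the labels. The submitters' processing notes name cutadapt 1.4.2, TopHat2, HTSeq, DESeq2, DESeq and build mm10; for settings and annotation release the sources used here give nothing. The authors' deposited table holds a mean signal of normalized counts, a log2 fold change with its standard error, a Wald score and p-values for 15548 genes. Each count file ends in 5 summary lines; reads in no annotated gene were 4.89 to 7.61% of all reads and stayed out of library sizes.

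Counts were analysed with edgeR 4.0.16 in R 4.3.3: filterByExpr, TMM scaling, a quasi-likelihood fit with group as its only term, Benjamini-Hochberg adjustment over the 16226 genes tested, and calls at an adjusted p under 0.05. CPM are TMM scaled, and CPM per kilobase divides by the merged exon length in GENCODE M21, which also gave coordinates and the names of 22194 genes not in the authors' table; 1182 had no name. Standard errors and 95% intervals come from the fit, unadjusted. Log2 CPM used a prior count of 2. Ratios to markers were tested by exact permutation over the 35 splits.

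The members and gene lists were chosen with earlier results of these data known. Named were all members, the called genes of each role group or otherwise up to 4 with the smallest p, the 3 genes most like each variable member (mean of at least 1 CPM, no predicted or clone names), and from marker lists the most abundant gene and up to 3 by p; Rdh10, Dhrs3, Adh1, Aldh1a7 and the marker genes of wild type replicate 2 were named after their values were seen. The values of 1 gene that this rule names are not reported here. The fit and the permutation test were tested on simulated data with known changes; small changes were recovered only in part. The alternatives were scaling by RLE or by total count, leaving out globin genes, no filter, at least 1 CPM in 3 libraries, limma-voom (limma 3.58.1), DESeq2 1.42.0, a replicate block, and each library left out.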

Additional observations from a re-analysis of the deposited data

Results flagged for a closer look

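Of 35 results checked for a library far from the others among the 4 of wild type, 3 had one, where chance gives about 1 in 20. One was Cyp26a1, at 2.76 CPM in wild type replicate 2 and 0.322 to 0.576 CPM in the other wild-type libraries, a gap above Dixon's limit for 4 samples. The same library held 3.90 CPM of Cyp11a1, 6.13 CPM of Star and 3.61 CPM of Nr5a1, steroidogenic genes that reached at most 0.339, 1.12 and 0.0662 CPM in the other 6 libraries. Whether tissue next to the liver contributed to the Cyp26a1 value was not tested. Acta2 stood at 119 CPM in wild type replicate 2 and 75.3 to 82.8 CPM in the other wild-type libraries, and Adh1 at 6.20 CPM there and 0.460 to 0.779 CPM in the others.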

How the results depend on the processing

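Lrat was lower in all 15 alternatives and called in 14. Aldh1a1, Rbp4, Stra6, Crabp1 and Crabp2 kept their sign in all 15. Aldh1a2, near 0, turned to -0.0054 with RLE, -9.66e-05 without globin genes, -0.0062 with no filter and -0.0058 with DESeq2, and ran from -0.13 to 0.17 with a library left out; Rarb ran from -0.0022 to 0.11. Cyp26a1 turned to 0.16 with limma-voom and ran from -0.70 to 0.84. Rbp4 relative to hepatoblast markers turned to -0.26 with the marker median and ran from -0.076 to 0.12.

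Over all genes 258 were higher and 556 lower, 68.3% of calls being lower. Under total-count scaling 651 were higher, 37.6% of calls were lower, and the median over all genes shifted from 0.01 to 0.14; DESeq2 gave 617 higher and 1057 lower. With a library left out the counts ran from 24 to 418 higher and 116 to 753 lower. The lowest counts in both directions were those without knockout replicate 5, where calls were lost over all genes. Members called lower numbered 2 with no filter and 2 with DESeq2, which called 1 higher; with a library left out they numbered 0 to 1. Pathway genes called higher numbered 1 with no filter and 2 with DESeq2, and lower 2 and 3; left-out libraries gave 0 to 3 higher and 0 to 1 lower. Target genes called higher numbered 2 with total-count scaling, 2 with no filter and 4 with DESeq2, with 1 to 5 higher and 0 to 1 lower when a library was left out. The cause of these shifts was not tested.

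Both groups have numbers 3 and 4, but no label ties equal numbers to a shared litter or day. Deviations from the group means correlated at 0.32 and 0.26 across genes for these pairs. For wild-type and knockout libraries of unequal number the correlations ran from -0.33 to 0.15. A replicate block takes up libraries whose number occurs in a single group, so its group difference rests on replicates 3 and 4 of each group. With the replicate block 852 genes were higher and 1204 lower, 3 members were higher (Stra6, adjusted p = 0.0130; Crabp1, 0.0168; Crabp2, 0.0178), 3 pathway genes higher and 4 lower, and 6 target genes higher; Lrat was at -1.61 (adjusted p = 0.00322), Aldh1a1 at -0.39 (0.251) and Cyp26a1 at 1.10. The block also called Lrp2 (0.00485), Cyp26b1 (0.00758), Rarg (0.0143), Ncoa7 (0.00287) and Adh1 (log2 2.05, 0.000789). Lrat in knockout rests on 24 to 66 reads a library, and the lowest counts limit precision most.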

Other observations

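Adh1, an alcohol dehydrogenase that can oxidise retinol, had 0.779, 6.20, 0.684 and 0.460 CPM in wild type replicates 1 to 4 and 1.33, 3.80 and 3.74 CPM in knockout replicates 3 to 5 (log2 0.53 ± 0.80, edgeR adjusted p = 0.741). Without wild type replicate 2 its log2 fold change was 2.21 ± 0.43 (edgeR adjusted p = 0.0175), so that library decided the call.

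Promoter windows with the direct repeat at 5 bases belonged to 31 gene symbols, of which 13 were found by name in the count files and 8 were tested. Of these 8, Blvrb, a biliverdin reductase of red cells, and Ppbp, a platelet chemokine, were called lower (log2 -1.48 ± 0.14 and -1.55 ± 0.15; edgeR adjusted p = 0.00133 for each) and none higher, with 3 at an unadjusted p under 0.05 and a median of -0.18. Over all genes tested 3.43% were called lower and 21.8% had an unadjusted p under 0.05, and with 8 genes a count of 2 or 3 says little. The median over the 11556 tested genes with a window was 0.01. These windows were searched after the values of the members were known, and a match is no evidence that the receptor binds there.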
